A study of Mus musculus with 6 samples.

Results

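The levels of 6 genes of the CC chemokine system were followed through orthotopic mouse pancreatic tumours by single-cell RNA sequencing. The ligand genes were Ccl17, Ccl22 and Ccl24, and the receptor genes were Ccr4, Ccr7 and Ccr3. These 6 of the 32285 genes in the deposited count tables were chosen by name, after their levels by cell class in these same tumours had been seen. Their distribution over cell classes is therefore given as a description with no test, and the lower Ccl24 of macrophages in OE-MLKL tumours, which was known beforehand, is no independent support for anything.

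CCL17 and CCL22 are chemokines that bind CCR4, a receptor carried by regulatory T cells and type 2 helper T cells, and dendritic cells are a known source of both. CCL24, also called eotaxin-2, binds CCR3 on eosinophils and is a known product of alternatively activated macrophages. CCR7 binds CCL19 and CCL21 and guides mature dendritic cells, naive T cells and B cells towards lymph nodes. It is not a receptor for the 3 ligands.

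KPC cells, a mouse pancreatic cancer line, were injected into the pancreas of wild-type C57BL/6 mice. The cells carried an empty overexpression vector (OE-Vector) or an MLKL overexpression construct (OE-MLKL), MLKL being the protein that executes necroptotic cell death. The study's methods give an age of 6 to 8 weeks for the mice at purchase and harvest of the tumours 4 weeks after injection, with both sexes in use. The labels do not give the promoter of the construct, the clonality of the line or the mouse of each tumour. Tumours were digested, red blood cells were removed, and single cells were captured without a sort. Count tables of 1 OE-Vector tumour (OE-Vector 1) and 3 OE-MLKL tumours (OE-MLKL 1, 2 and 3) were used, while the other OE-Vector samples, replicates 2 and 3, were not used here.

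The 4 libraries held between 150591289 and 169978362 unique molecular identifiers (UMIs, each standing for 1 captured RNA molecule), and 63182 cells were kept. Mlkl itself did not set the groups apart. Over all cells it reached 13.1 CPM (UMIs of a gene per 1000000 UMIs of the class) in OE-Vector 1 and 7.96, 11.9 and 15.8 CPM in OE-MLKL 1, 2 and 3, and in cancer cells 15.7 against 8.52, 12.5 and 19.9 CPM. The UMIs do not separate Mlkl made by the construct from the cells' own Mlkl, and "OE-MLKL" below means the libraries labelled so. The libraries shared 441 cell barcodes, which belonged to 886 cells or 1.40% of all cells.

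Cells were assigned to classes by marker genes that did not include the 6 genes. Dendritic cells numbered 158 in OE-Vector 1, against 82, 98 and 220 in OE-MLKL 1, 2 and 3. In the same order there were 1797, 2339, 2034 and 2789 macrophages, 971, 539, 620 and 801 T cells, and 2655, 6079, 6524 and 3449 cancer cells. Markers held back from the gates were highest in their own class for 6 of 7 macrophage genes, 5 of 7 T cell genes, 4 of 8 cancer cell genes and 7 of 8 mature dendritic cell genes. A gate built on Ly6c2, Vcan and Ccr2 failed this check, with 0 of 5, and its 201 cells are called Ly6c2-gated cells rather than monocytes. Of all cells 2 passed the eosinophil gate, and they passed another gate as well, so that 0 cells were assigned to that class. Class sums cannot tell fewer producing cells from less RNA in each cell, so the share of cells with a UMI is given beside the main levels.

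Ccl17 and Ccl22 are neighbours on mouse chromosome 8 (mm10, GENCODE vM21). Ccl22 lies on the plus strand at chr8:94745590-94751699 and Ccl17 on the same strand at chr8:94810453-94812036, with 58753 bases, the chemokine gene Cx3cl1 and the pseudogene Gnb1-ps3 between them. Ccl24 lies at chr5:135569937-135573049 on the minus strand, Ccr4 at chr9:114490316-114504916 on the minus strand, Ccr7 at chr11:99144196-99155077 on the minus strand, and Ccr3 at chr9:124021972-124031689 on the plus strand. The promoters of the neighbouring pair are shown because the order of the pair's levels differed between dendritic cell types, as given below. They are RefSeq sequences of the GRCm38.p6 build, plus strand, ending where the annotated genes begin, and capitals mark a match to TTCNNNNGAA, the spacing preferred by STAT6, the factor that acts downstream of interleukin-4 and interleukin-13.
Ccl17, chr8:94810203-94810452: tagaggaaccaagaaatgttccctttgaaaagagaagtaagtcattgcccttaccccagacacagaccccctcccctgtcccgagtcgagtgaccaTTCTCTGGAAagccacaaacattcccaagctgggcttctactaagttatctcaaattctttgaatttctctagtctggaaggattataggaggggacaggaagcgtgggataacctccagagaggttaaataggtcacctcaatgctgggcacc
Ccl22, chr8:94745434-94745589: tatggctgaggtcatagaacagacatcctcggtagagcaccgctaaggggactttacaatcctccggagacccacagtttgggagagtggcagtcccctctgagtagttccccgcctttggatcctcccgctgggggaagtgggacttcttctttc

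The match in the Ccl17 window spans positions -154 to -145 from the gene start. Such a match was present on either strand in 5.85% of 32851 RefSeq promoter windows of 250 bases, and the Ccl22 window of that length, which ends at the RefSeq start inside the GENCODE gene and is printed up to that gene only, held none. The Ccl17 window also held TTCNNNGAA, the STAT5 spacing, at -99 to -91, which 7.02% of all windows had, and GAGGAA, a core bound by PU.1, at -248 to -243, which 23.3% had. The sequence GGGNNTTTCC, an NF-kB type site, was found in 1.41% of all windows and in neither of the pair. Among the other 4 genes, the promoter table held Ccr4 and Ccr3, and the Ccr3 window had an NF-kB type match on the minus strand. These matches describe letters only.

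Ccl17 was chiefly a dendritic cell RNA. Dendritic cells made up 0.521 to 1.45% of the cells of a library and held 67.3% of the Ccl17 UMIs in OE-Vector 1, against 62.5, 59.7 and 84.7% in OE-MLKL 1, 2 and 3. Ccl22 followed the same class, with 75.7% of its UMIs in dendritic cells of OE-Vector 1 and 60, 77.4 and 81.7% in the OE-MLKL libraries. Ccl24 did not, since macrophages held 77.6% of its UMIs in OE-Vector 1, against 30.2, 76.8 and 56.2% in OE-MLKL 1, 2 and 3, and dendritic cells at most 1.44% in any library. Of the ligands, Ccl17 and Ccl22 were thus mostly in dendritic cells in these 4 libraries, and Ccl24 was not. With the check markers in place of the gate markers the mean dendritic share over libraries was 42.1% for Ccl17 (68.6% with the gates) and 47.1% for Ccl22 (73.7%).

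**Figure D1:**
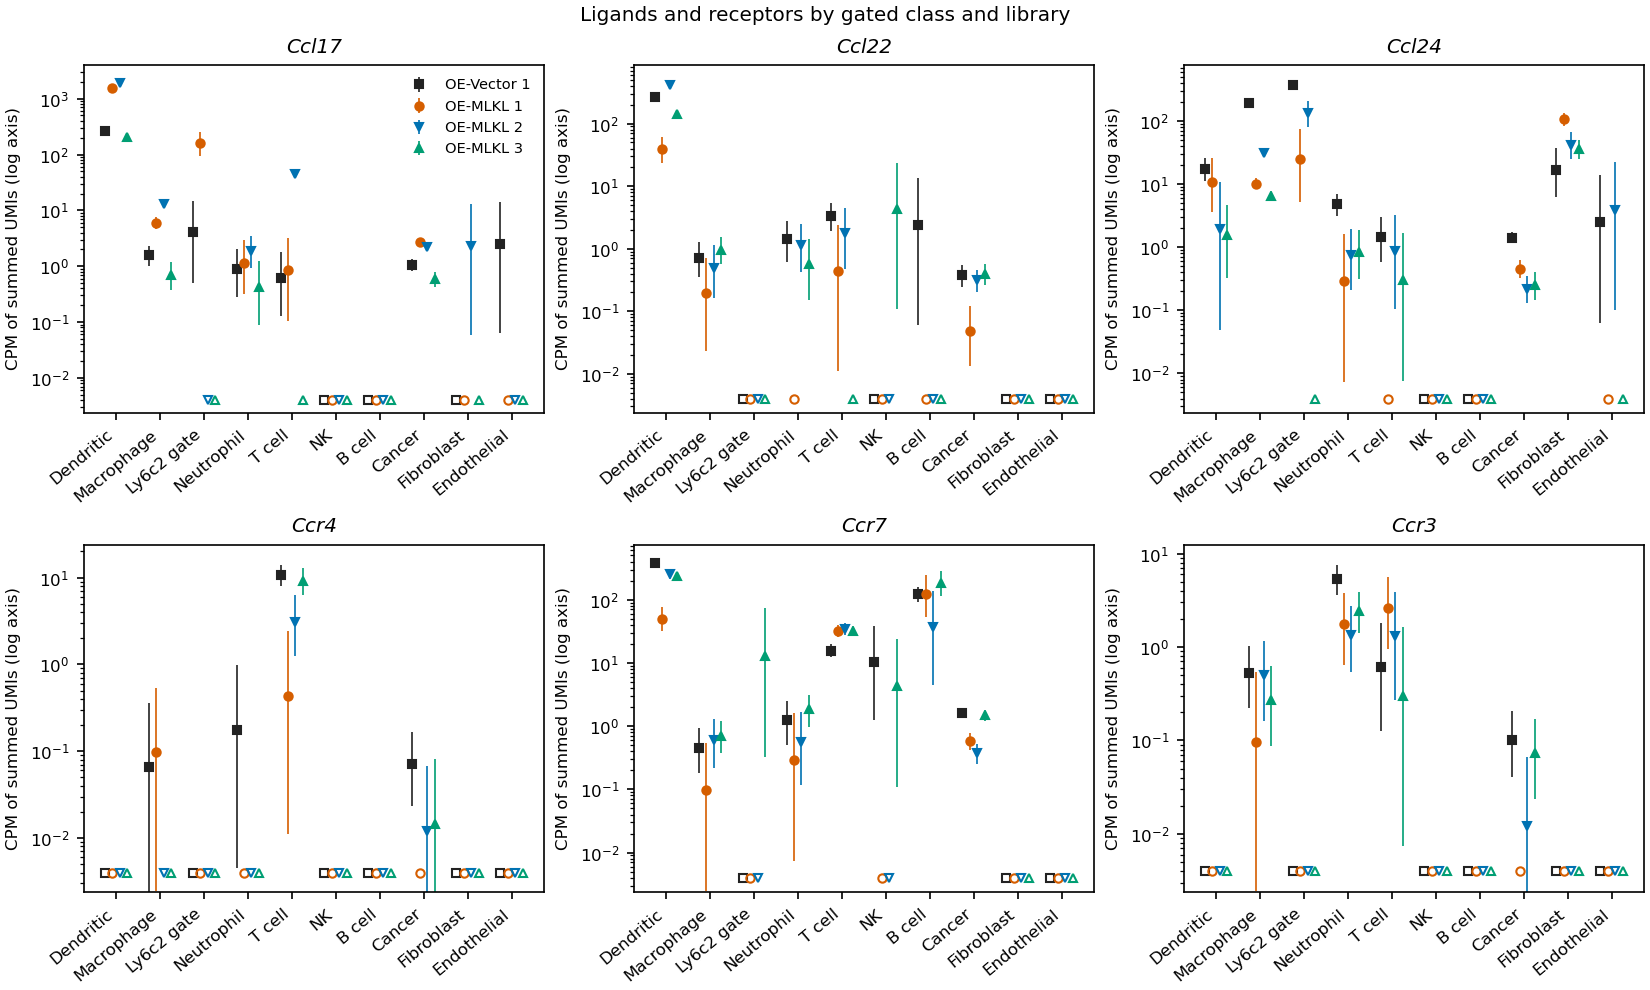
Level of each gene in each gated class, as CPM of the UMIs summed over the class (log axis), with 1 point per library and 95% exact Poisson intervals for counting error. Open points at the bottom are classes with no UMI of the gene. Ccl17 and Ccl22 stand highest in dendritic cells, Ccl24 in macrophages, Ly6c2-gated cells and fibroblasts, Ccr4 in T cells, and Ccr7 in dendritic cells and B cells.

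**Figure D2:**
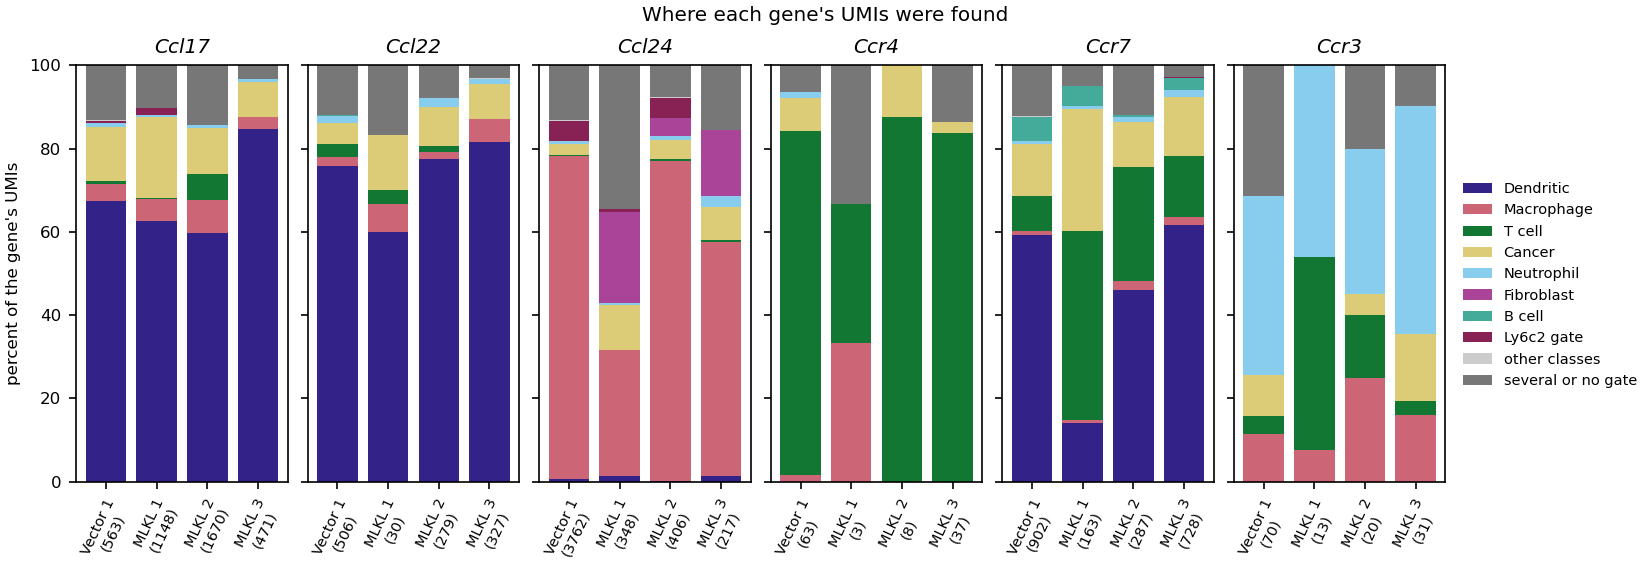
Percent of each gene's UMIs found in each gated class, by library, with the number of UMIs of the gene under each bar. The dendritic segment is the largest for Ccl17 and Ccl22 in all 4 libraries, and the Ccr4 and Ccr3 bars of the OE-MLKL libraries rest on 3 to 37 UMIs.

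The Ccl17 level in dendritic cells varied widely between tumours. It was 266 CPM in OE-Vector 1 (379 UMIs, 95% exact Poisson interval 239.9 to 294), 1571 CPM in OE-MLKL 1 (718 UMIs), 1932 CPM in OE-MLKL 2 (997 UMIs) and 210.2 CPM in OE-MLKL 3 (399 UMIs). The share of dendritic cells with a Ccl17 UMI was 25.3, 61.0, 74.5 and 27.7% in that order, and 10.1, 40.4, 55.2 and 11.1% after each cell was thinned to 1000 UMIs. OE-MLKL 1 and 2 were high, and OE-MLKL 3 lay just below OE-Vector 1, so the groups overlapped. The OE-MLKL mean was 1238 ± 908 CPM (SD, n = 3). The edgeR quasi-likelihood fit across all genes put the log2 fold change (OE-MLKL minus OE-Vector) at 2.25 ± 0.90 (SE, adjusted p = 0.999). Without OE-MLKL 3, the library that lay below OE-Vector 1, it was 2.77. With all libraries and no filter on low counts it was 2.19 with an adjusted p of 0.0193 in edgeR.

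This fit called 6 of 9192 genes in dendritic cells (0.0653%), none of them among the 6 genes. Since there was 1 OE-Vector library, the spread in every fit came from the OE-MLKL libraries alone, and OE-Vector 1 was assumed to vary as they do. An exact permutation test of 1 against 3 libraries cannot go below p = 0.25. In simulated dendritic cell counts the fit recovered 19% of genes changed by 1.5 on the log2 scale and 73% of genes changed by 3. It also made 4 false calls. The simulation gave every gene the same spread, so recovery of genes as variable as Ccl17 was not measured.

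Ccl17 was spread over several dendritic cell types. The 4 dendritic gates held 94 mature cells (Fscn1, Cacnb3, Il4i1), 234 type 1 cells (Xcr1, Clec9a), 190 cells of the Cd209a type (Cd209a, Flt3, Napsa) and 40 plasmacytoid cells (Siglech, Ccr9) over the 4 libraries. In type 1 cells, which cross-present antigen to CD8 T cells, Ccl17 reached 251 CPM in OE-Vector 1 and 2285, 1682 and 219 CPM in OE-MLKL 1, 2 and 3. In Cd209a-type cells it was 306 CPM against 1046, 2334 and 102 CPM. In mature cells, which are on their way to lymph nodes, it was 349 CPM against 50.5, 1558 and 383 CPM, the first of the OE-MLKL values resting on 1 UMI in 5 cells. OE-MLKL 1 and 2 were high in the type 1 and Cd209a gates, and OE-MLKL 3 was below OE-Vector 1 in both. Plasmacytoid cells held 0 Ccl17 UMIs in every library, which in the OE-Vector 1 plasmacytoid cells allows up to 30.6 CPM.

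**Figure D3:**
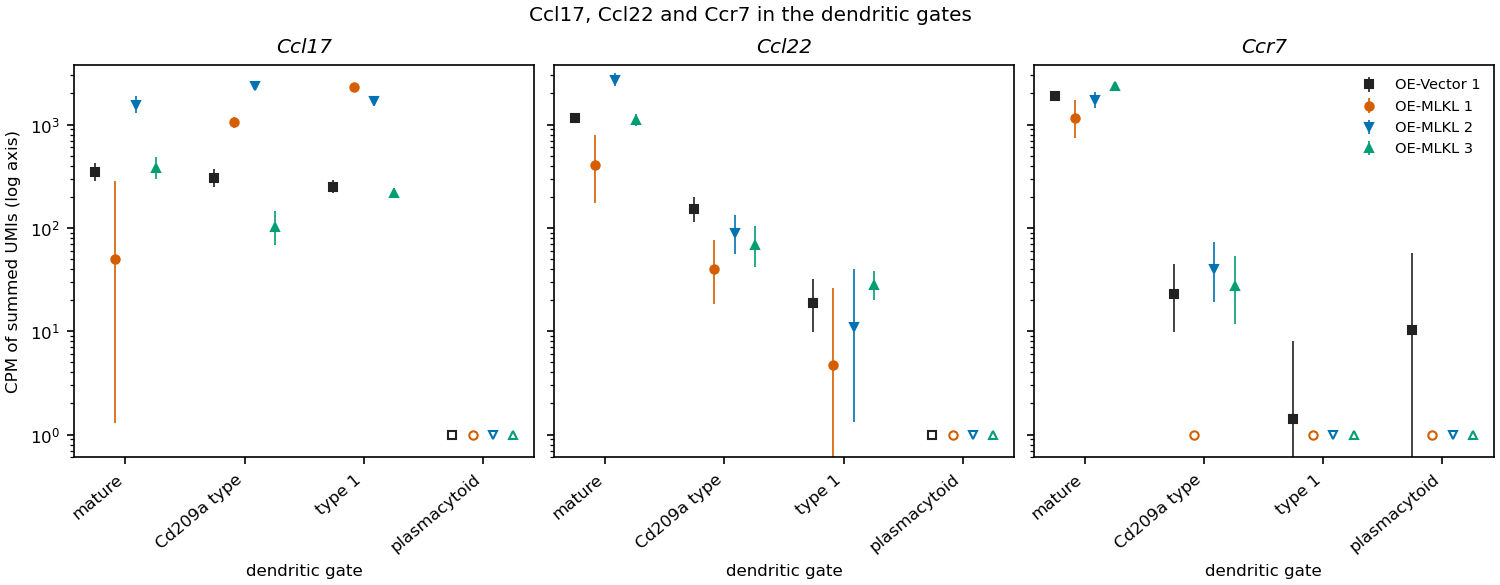
Ccl17, Ccl22 and Ccr7 in the 4 dendritic gates, as CPM of summed UMIs (log axis), with 1 point per library and 95% exact Poisson intervals. Open points mark 0 UMIs. Ccl17 is found in the mature, Cd209a-type and type 1 gates, in an order that differs between libraries, while Ccl22 and Ccr7 are highest in mature cells in every library.

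In cancer cells and macrophages the Ccl17 CPM was below that of free RNA. The part of free RNA in the UMIs of a cell was not estimated, so this order does not tell how many of their Ccl17 UMIs were free RNA. Barcodes with 100 UMIs or fewer, which hold free RNA rather than cells, had 2.61, 8.52, 17.4 and 7.24 CPM of Ccl17 in the 4 libraries. Cancer cells had 1.06, 2.70, 2.24 and 0.587 CPM, below free RNA in each library, although the class held 8.49 to 19.5% of Ccl17 UMIs through its size. Macrophages had 1.56, 6.00, 13.1 and 0.698 CPM, also below free RNA in each library, and in OE-MLKL 2 a single cell held 80 of their 132 UMIs. In T cells the value of OE-MLKL 2 came from 104 UMIs in 3 cells, 72 of them in 1 cell, and the other 3 libraries had 0 to 3 UMIs. Ly6c2-gated cells of OE-MLKL 1 had 159 CPM from 19 UMIs in 27 cells, and cells that passed no gate had 8.02, 16.6, 50.5 and 3.18 CPM, above free RNA in all libraries but OE-MLKL 3.

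Ccl22 was concentrated in mature dendritic cells. In that gate it reached 1151 CPM in OE-Vector 1 and 404, 2719 and 1110 CPM in OE-MLKL 1, 2 and 3, and 74 of the 94 mature cells had a Ccl22 UMI. OE-MLKL 2 was the highest, and OE-MLKL 1, with 8 UMIs in 5 cells, the lowest. Cd209a-type cells had 151, 40.2, 88.2 and 68.1 CPM, and type 1 cells 18.5, 4.73, 11.03 and 28.0 CPM, so the order of the 3 gates was the same in all 4 libraries. Over all dendritic cells Ccl22 had 269 CPM in OE-Vector 1 (383 UMIs) and 39.4 CPM (18 UMIs), 419 CPM (216 UMIs) and 141 CPM (267 UMIs) in OE-MLKL 1, 2 and 3, and the groups overlapped. The share of dendritic cells with a Ccl22 UMI was highest in OE-Vector 1, at 29.1%, against 8.54, 24.5 and 17.7%, and after thinning to 1000 UMIs it was 15.0% against 4.44, 15.8 and 9.25%, where the groups overlapped. The fitted log2 change of the level was -0.46 ± 0.70 (SE), and the edgeR adjusted p was 0.999. Free RNA held 1.20 to 5.36 CPM of Ccl22, and cancer cells 0.0482 to 0.396 CPM.

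The neighbouring pair was often detected apart in single cells, where an RNA that is present can be missed. Of the 558 dendritic cells, 158 had Ccl17 but no Ccl22 UMI, 50 had Ccl22 but no Ccl17 UMI, and 66 had both. In type 1 cells 88 had Ccl17 alone and 12 both, whereas in mature cells 3 had Ccl17 alone, 38 Ccl22 alone and 36 both. Over 45 sums of a class in a library, Pearson's r of log2(CPM + 1) was 0.76 between Ccl17 and Ccl22, 0.55 between Ccl22 and Ccr7 and 0.15 between Ccl17 and Ccr7. The value of 0.76 was the highest among all pairs of the 6 genes. These sums share libraries and depth, and r is given as a description. Cx3cl1, which lies between them and encodes fractalkine, had 5348 UMIs in all, of which dendritic cells held 43.

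Ccr7 followed Ccl22 in dendritic cells. In mature cells it reached 1906 CPM in OE-Vector 1 and 1161, 1728 and 2343 CPM in OE-MLKL 1, 2 and 3, and 83 of the 94 cells had a UMI. Ccl22 and Ccr7 were found together in 68 mature cells. Type 1 cells had 1 Ccr7 UMI in all, among 234 cells. Within the mature gate the groups overlapped.

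Over all dendritic cells Ccr7 was higher in OE-Vector 1 than in every OE-MLKL library. It had 376 CPM (535 UMIs) against 50.3 CPM (23 UMIs), 256 CPM (132 UMIs) and 237 CPM (449 UMIs). A Ccr7 UMI was found in 28.5% of dendritic cells against 4.88, 20.4 and 11.8%. Of all genes tested in dendritic cells, 21.2% lay above every OE-MLKL library in OE-Vector 1. The fit gave -1.08 ± 0.54 (SE) on the log2 scale, adjusted p = 0.999 in edgeR. The share of mature cells among dendritic cells was also highest there, with 27.8% (44 of 158) in OE-Vector 1, against 6.10, 17.3 and 12.7% in OE-MLKL 1, 2 and 3 (exact two-sided permutation p = 0.25, the smallest possible). Without OE-MLKL 3 the fitted change of Ccr7 was -1.25.

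Genes of the dendritic maturation programme that served in no main gate were read beside Ccl22 and Ccr7. Relb, Cd40, Cd80, Cd200, Traf1, Samsn1 and Tmem123 of this list were also check markers of the mature gate. The part of the share of mature cells in the list's values was not tested. All 16 genes of the list could be tested in dendritic cells and 0 were called by edgeR. In OE-MLKL 14 were fitted lower, the median of the list being -0.48 on the log2 scale beside 0.04 over all 9192 genes, and 9 lay above every OE-MLKL library in OE-Vector 1, where 21.2% of all genes tested did. The 3 with the highest level were Tmem123 (380.5 CPM against 70.0, 211 and 182), Traf1, a signalling adaptor of the TNF receptor family (237 CPM against 133, 215 and 176), and Marcksl1 (197 CPM against 52.5, 180.2 and 172). Each was lowest in OE-MLKL 1, the library with 5 mature cells. The list was also mostly fitted lower in 2 of the other fitted classes. In neutrophils 13 of 14 genes were lower (median -0.76), and 7 lay above every OE-MLKL library in OE-Vector 1, where 15.8% of all genes tested did. In cancer cells 13 of 15 were lower (median -0.38), and 3 lay above every OE-MLKL library, where 17.3% of all genes did. The list was mixed in macrophages (9 of 16 lower, median -0.04), T cells (8 of 13 lower, median -0.04) and fibroblasts (3 of 7 lower, median 0.34), and 0 of its genes were called in any class.

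The 6 genes called in dendritic cells are named after their values were seen. Retnla, Ly6d, Cox6a2, Igfbp4 and Ifi27l2a were lower in OE-MLKL and Gm19951 was higher. Cox6a2 is a marker of the plasmacytoid gate and Ly6d one of its check markers, and plasmacytoid cells made up 13.3% of dendritic cells in OE-Vector 1, against 1.22, 5.10 and 5.91% in OE-MLKL 1, 2 and 3. The part of this share in the calls was not tested. Retnla, a secreted protein induced by interleukin-4 and interleukin-13, had 89 UMIs in OE-Vector 1 and 0, 0 and 3 in the OE-MLKL libraries, a fitted log2 change of -5.87 ± 0.67 (SE, edgeR adjusted p = 0.00145). Its 89 UMIs came from 5 cells, 1 of which held 44, and 4 of the 5 were of the Cd209a type.

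Ccl24 was found mostly in macrophages in 3 of the 4 libraries, and its level in OE-Vector 1 stood apart. In OE-MLKL 1 cells that passed no gate held 33.3% of its UMIs and macrophages 30.2%. Macrophages had 190.1 CPM in OE-Vector 1 (2918 UMIs, 95% interval 183 to 197) and 10.2 CPM (105 UMIs), 31.0 CPM (312 UMIs) and 6.55 CPM (122 UMIs) in OE-MLKL 1, 2 and 3. OE-Vector 1 lay above every OE-MLKL library, as did 18.6% of all genes tested in macrophages. The share of macrophages with a Ccl24 UMI was 14.6% against 3.46, 6.78 and 2.12%, and 6.44% against 0.968, 2.27 and 0.619% after thinning to 1000 UMIs. Among T cells, which are not known to make it, the shares with a UMI were 0.721% against 0, 0.323 and 0.125%. Free RNA held 33.3 CPM against 4.56, 4.93 and 5.76 CPM, so that macrophages of OE-MLKL 3 were within the counting error of free RNA. The fitted log2 fold change was -3.67 ± 0.70 (SE), with an adjusted p of 0.588 in a fit that called 3 of 13425 genes (0.0223%). The fitted change was -4.60 without OE-MLKL 2 and -3.27 without OE-MLKL 3.

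Few cells held much of the Ccl24. In OE-Vector 1, 50% of its 3762 UMIs were held by 23 cells, and the cell with the most held 295. In the OE-MLKL libraries the same share was held by 26 to 28 cells, of 217 to 406 UMIs in all, and no cell held more than 39. The highest cell of OE-Vector 1 was a macrophage, and the share of macrophages with a UMI differed between libraries by less than the level did.

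Ccl24 was highest in macrophages with Arg1-type genes, with or without resident-type genes. Macrophages were split by an Arg1 list (Arg1, Spp1, Hmox1, Ndrg1) and a list of resident-type genes led by Mrc1 and F13a1. Cells with the Arg1 list alone had 421 CPM in OE-Vector 1 and 20.4, 58.4 and 17.3 CPM in OE-MLKL 1, 2 and 3. Cells with both lists had 293 CPM against 18.4, 41.1 and 21.7 CPM. Cells with the Mrc1-F13a1 list alone had 13.8 CPM against 6.88, 19.0 and 2.50 CPM, and here the groups overlapped. Cells with neither list had 30.2 CPM against 4.91, 18.9 and 1.15 CPM. OE-Vector 1 was above every OE-MLKL library in the 3 subsets other than Mrc1-F13a1 alone. Free RNA held 33.3 CPM in OE-Vector 1 and 5.76 CPM in OE-MLKL 3. Neither library exceeded its free RNA in the neither-list and Mrc1-F13a1 subsets. Arg1-only cells were 3.20% of all cells in OE-Vector 1 and 1.47 ± 0.46% (SD, n = 3) in OE-MLKL, so both their number and their level were lower (exact permutation p of the share = 0.25).

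**Figure D4:**
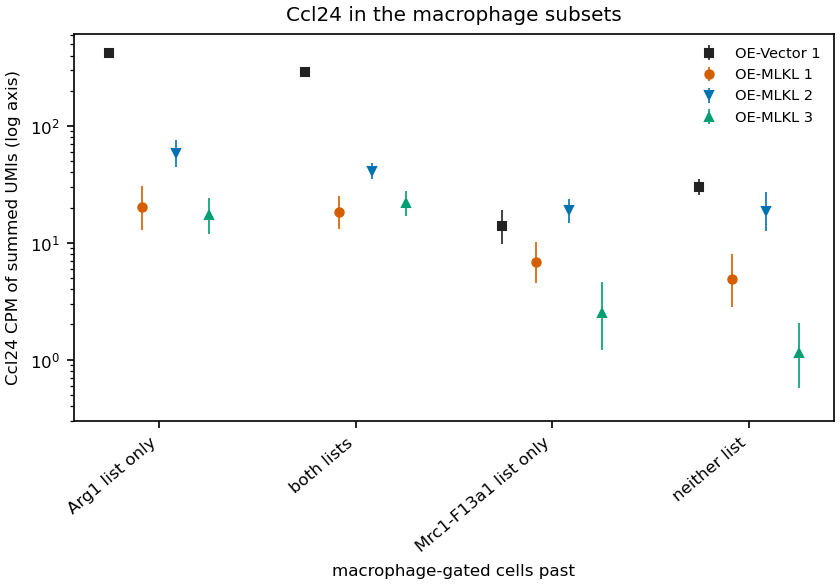
Ccl24 in macrophages split by their marker lists, as CPM of summed UMIs (log axis), with 1 point per library and 95% exact Poisson intervals. OE-Vector 1 is far above the OE-MLKL libraries in the Arg1-only and both-list subsets (421 and 293 CPM). In the neither-list subset OE-Vector 1 is above them at 30.2 CPM, which does not exceed its free RNA. In the Mrc1-F13a1 subset it is within their range.

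The alternative activation list was counted beside Ccl24 in macrophages. All 12 of its genes were tested and 0 called, 6 fitted higher and 6 lower, with a median of -0.33 on the log2 scale beside 0.04 over all 13425 genes. Arg1, which hydrolyses arginine, had 1511 CPM in OE-Vector 1 and 618, 1006 and 767 CPM in OE-MLKL. Mrc1, the mannose receptor, had 541 CPM against 641, 1042 and 560.0 CPM, and F13a1, a clotting factor subunit, 333 CPM against 655, 1040.4 and 474 CPM. OE-Vector 1 lay above every OE-MLKL library for Arg1 and below every one for Mrc1 and F13a1, and their edgeR adjusted p-values were 0.893, 0.941 and 0.907. Of the 12 genes OE-Vector 1 lay above every OE-MLKL library for 6, where 18.6% of all genes tested did. For 5 it lay below every one, where 33.9% did. The 3 genes called in macrophages, named after their values were seen, were Tnfrsf9, Mmp12 and Apol7c, all lower in OE-MLKL.

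In fibroblasts OE-Vector 1 was the lowest library for Ccl24. They had 16.9 CPM in OE-Vector 1 (6 UMIs in 33 cells) and 107 CPM (76 UMIs), 41.7 CPM (18 UMIs) and 35.5 CPM (34 UMIs) in OE-MLKL 1, 2 and 3. OE-Vector 1 lay below every OE-MLKL library, as it did for 30.9% of genes tested in fibroblasts. Its value was also below that of its free RNA, 33.3 CPM, while the OE-MLKL values were above theirs of 4.56, 4.93 and 5.76 CPM. A Ccl24 UMI was found in 4 of 33 fibroblasts in OE-Vector 1, against 22 of 75, 7 of 74 and 16 of 76. By this share OE-MLKL 2 was not above OE-Vector 1. The 3 highest cells held 37 of the 76 UMIs in OE-MLKL 1 and 14 of the 18 in OE-MLKL 2. The fitted change was 1.87 ± 0.83 (log2, SE) with an edgeR adjusted p of 0.577, and the fit called 2 of 8459 genes (0.0236%), Tnc and Isg15, both lower in OE-MLKL and named after their values were seen. When cells with high doublet scores were kept the Ccl24 change turned to -1.11. Ly6c2-gated cells had 368, 25.1, 132 and 0 CPM of Ccl24, from 181, 3, 19 and 0 UMIs.

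In cancer cells, neutrophils and T cells Ccl24 was below the free RNA. Barcodes with at most 100 UMIs had 33.3 CPM in OE-Vector 1 and 4.56, 4.93 and 5.76 CPM in OE-MLKL 1, 2 and 3. Cancer cells had 1.41 CPM against 0.458, 0.217 and 0.249 CPM, neutrophils 4.76 CPM against 0.291, 0.760 and 0.848 CPM, and 88 of the 93 positive cancer cells of OE-Vector 1 had exactly 1 UMI. In cancer cells OE-Vector 1 lay above every OE-MLKL library, as it did for 17.3% of genes, and the log2 fold change of -2.26 ± 0.70 (SE) had an adjusted p of 0.999. That fit called 1 of 16955 genes (0.0059%), the haemoglobin gene Hbb-bs, named after its value was seen. Cells that passed no gate were not below it, with 38.0 CPM (166 UMIs) in OE-Vector 1 and 20.7 CPM (116 UMIs), 6.31 CPM (20 UMIs) and 6.596 CPM (27 UMIs) in OE-MLKL 1, 2 and 3. The part of free RNA in these values was not tested.

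Ccr4, the receptor of CCL17 and CCL22, was sparse and found in T cells. T cells had 52 Ccr4 UMIs in OE-Vector 1, against 1, 7 and 31 in OE-MLKL 1, 2 and 3, and the level was 10.7 CPM against 0.435, 3.08 and 9.19 CPM. The share of T cells with a Ccr4 UMI was 4.33, 0.186, 0.968 and 2.87% in the same order of libraries, and 1.43, 0.0396, 0.486 and 1.16% after thinning. Regulatory T cells held 24, 0, 1 and 18 of these UMIs and other CD4 T cells 19, 0, 1 and 11, while CD8 T cells held 0, 1, 2 and 1. OE-Vector 1 and OE-MLKL 3 were alike in regulatory T cells, with 18.4 and 19.9 CPM, and the other OE-MLKL libraries had 0 and 1 UMI, the 0 in OE-MLKL 1 allowing up to 6.81 CPM. OE-Vector 1 lay above every OE-MLKL library in T cells as a whole, as did 18% of genes tested there. On the log2 scale the fitted change was -1.35 ± 0.80 (SE), edgeR adjusted p = 0.9999. Dendritic cells had 0 Ccr4 UMIs in all 4 libraries and macrophages 2 in all.

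The libraries ranked differently for Ccr4 and for Ccl17. OE-MLKL 1 and 2, where dendritic cells had the highest Ccl17 CPM, had the fewest Ccr4 UMIs in T cells, and OE-Vector 1 and OE-MLKL 3 had the least Ccl17 and the most Ccr4. With 4 libraries this is an order and not a relation that can be tested. Depth parted the libraries alike in some classes. Median UMIs per dendritic cell were 7476 in OE-Vector 1 and 8374.5 in OE-MLKL 3, against 5370 and 4845 in OE-MLKL 1 and 2. Per cancer cell they were 23915 and 19140 against 11845 and 11268.5. Medians per T cell, 3583 and 3048 against 3378 and 2613, did not part this way. The part of depth in the order was not tested. T cells were 7.20% of cells in OE-Vector 1 and 4.003 ± 1.11% (SD, n = 3) in OE-MLKL (exact permutation p = 0.25), and regulatory T cells 1.26% against 0.703 ± 0.334%. Of the 7 regulatory T cell genes tested in T cells 0 were called, with a median log2 change of -0.02 beside 0.02 over all genes. The 3 with the highest level were Ikzf2 (501 CPM against 234, 287 and 572), Icos (271 CPM against 179, 192 and 312) and Tnfrsf18 (237 CPM against 236, 282 and 193), and all 3 overlapped between the groups.

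In T cells OE-Vector 1 was the lowest library for Ccr7, where in dendritic cells it was the highest. Ccr7 had 15.7 CPM in OE-Vector 1 (76 UMIs) and 32.2 CPM (74 UMIs), 34.7 CPM (79 UMIs) and 32.0 CPM (108 UMIs) in OE-MLKL 1, 2 and 3. The OE-MLKL libraries were close to one another and all above OE-Vector 1, as was so for 25.2% of genes tested in T cells. A Ccr7 UMI was found in 4.22% of T cells in OE-Vector 1, against 6.49, 5.97 and 5.74%. The log2 fold change was 1.04 ± 0.35 (SE), with an unadjusted p of 0.0135 and an adjusted p of 0.893 in the edgeR fit, which called 3 of 11394 genes (0.0263%). Both CD8 T cells (16.2 CPM against 34.0, 42.7 and 22.7) and regulatory T cells (10.7 CPM against 13.6, 48.6 and 53.2) were lowest in OE-Vector 1. In regulatory T cells OE-Vector 1 was only narrowly below OE-MLKL 1. Other CD4 T cells (19.8 CPM against 7.44, 5.77 and 52.2) overlapped between the groups, on 16, 1, 2 and 14 UMIs. The naive T cell genes Il7r (178 CPM against 230, 223 and 221), Klf2 (61.2 CPM against 46.9, 54.5 and 89.3) and Lef1 (45.8 CPM against 45.6, 40.9 and 54.9) did not share a direction, and 0 of the 6 genes of that list were called. Of the 6, 2 were fitted higher and 4 lower, with a median of -0.13 beside 0.02 over all genes. OE-Vector 1 lay above every OE-MLKL library for 2, where 18% of all genes did, and below every one for 1, where 25.2% did. B cells had 122, 123, 37.5 and 186 CPM of Ccr7, from 51, 8, 2 and 21 UMIs.

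The ligands of CCR7 were nearly absent. Ccl19 had 58 UMIs in all 4 libraries, 29 of them in fibroblasts and 0 in dendritic cells, and Ccl21a had 3. Both symbols stand for 2 gene entries each, near-identical copies between which reads may be lost, so these counts are uncertain.

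Ccr3, the receptor of CCL24, was close to the detection limit, and 0 cells were assigned to eosinophils, which usually carry it. The libraries held 70, 13, 20 and 31 Ccr3 UMIs, of which neutrophils, the most numerous class with 20246 cells, had 30, 6, 7 and 17. In neutrophils this came to 5.28 CPM in OE-Vector 1 and 1.75, 1.33 and 2.40 CPM in OE-MLKL 1, 2 and 3, and 0.612% of neutrophils in OE-Vector 1 had a UMI against 0.106 to 0.336%. Cells that passed no gate held 20, 0, 4 and 3 Ccr3 UMIs, or 4.58, 0, 1.26 and 0.733 CPM. In OE-Vector 1, 0.752% of them had a UMI, so Ccr3 was not particular to neutrophils. OE-Vector 1 lay above every OE-MLKL library, as did 15.8% of genes tested in neutrophils. The log2 fold change was -1.74 ± 0.58 (SE) with an edgeR adjusted p of 0.608. No gene was called in neutrophils by edgeR (0%), where 949 of 12250 had an unadjusted p under 0.05, and DESeq2 called 75 and limma 0. Free RNA held 0.653, 0, 0.240 and 1.49 CPM of Ccr3. Of the other eotaxin genes, Ccl11 had 96 UMIs in all, 74 of them in fibroblasts (33, 2, 17 and 22), and Ccl26 had 0. Ccl7, also counted as a ligand of the receptors studied, had 24533 UMIs in all, 19276 of them in macrophages.

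**Figure D5:**
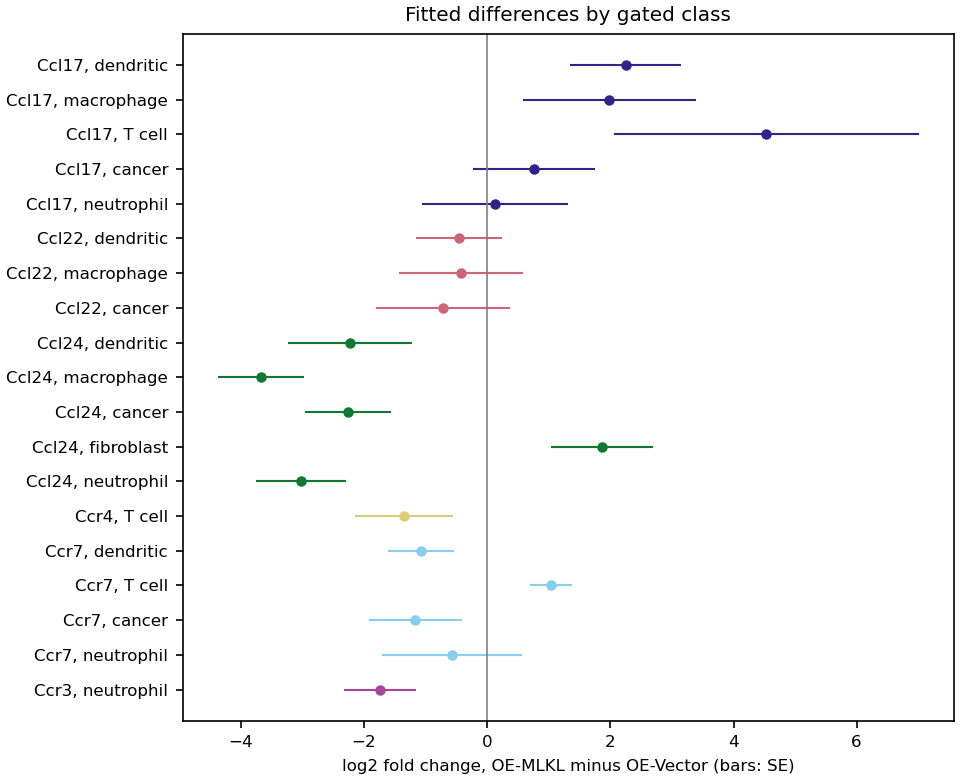
Fitted log2 fold changes, OE-MLKL minus OE-Vector, for each gene in each class where it had enough UMIs to be tested, with bars of 1 SE. None passed an adjusted p of 0.05. Ccl24 is below 0 in 4 classes and above 0 in fibroblasts, and Ccr7 is below 0 in dendritic cells and above 0 in T cells.

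Cytokines that induce these ligands were looked up in T cells, their usual source. Il13, the type 2 cytokine that signals through STAT6, had 189 UMIs in T cells of OE-Vector 1, against 4, 6 and 8 in OE-MLKL 1, 2 and 3, or 39.0 CPM against 1.74, 2.64 and 2.37 CPM. The log2 fold change was -4.14 ± 0.39 (SE), with an edgeR adjusted p of 0.00639, the only call among the 13 tested genes of that list, whose median was -0.13 beside 0.02 over all genes. Its 189 UMIs were held by 25 of 971 T cells, 67 of them by 1 cell, and 156 by CD4 T cells outside the regulatory gate. The adjusted p ranged from 8.27e-16 to 0.137 over the other settings. Il4 had 24 UMIs against 0, 0 and 5 (edgeR adjusted p = 0.9999). Csf2, which encodes GM-CSF, had 128 against 12, 14 and 13 (edgeR adjusted p = 0.147). OE-Vector 1 was highest for all 3 cytokines, as for 18% of all genes tested in T cells. In mast cells and basophils Il13 had 12 UMIs in OE-Vector 1 (86.5 CPM, 40 cells), 0 in OE-MLKL 1 and 2, and 11 in OE-MLKL 3 (233 CPM, 17 cells). The other genes called in T cells, Rnase1 and Clps, are made by the exocrine pancreas and were named after their values were seen.

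The receptors and factors for these cytokines were present in the ligand-producing cells, but not only there. Over the 4 libraries Csf2rb averaged 322 CPM in neutrophils, beside 230 CPM in dendritic cells, and Klf4 averaged 505 CPM in fibroblasts. In dendritic cells Csf2rb had 245 CPM in OE-Vector 1 and 212, 213 and 250.3 CPM in OE-MLKL, Klf4 80.7 CPM against 164, 182 and 149 CPM, and Csf2ra 123 CPM against 116, 134 and 184 CPM. In macrophages Klf4 had 81.6 CPM against 221, 419.8 and 275 CPM, Il4ra, a chain of the interleukin-4 and interleukin-13 receptors, 190.5 CPM against 227, 288 and 273 CPM, and Csf2rb 131 CPM against 217, 164 and 148 CPM. Klf4 was lowest in OE-Vector 1 in both classes, as were 23.1% of genes tested in dendritic cells and 33.9% in macrophages. It was also lowest there in cancer cells (135 CPM against 243, 229 and 457) and neutrophils (18.8 CPM against 39.6, 38.4 and 70.5). OE-Vector 1 was the lowest library for 31.6% of genes tested in cancer cells and 41.4% in neutrophils. In T cells and fibroblasts Klf4 was not lowest in OE-Vector 1. Of the list, 10 genes were tested in dendritic cells and 11 in macrophages, and 0 were called in either.

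Chemokines outside the 3 ligands gave a scale for these levels within the same class sums, though UMIs of different genes are compared here only by class and library. In dendritic cells Ccl5 had 1079 CPM in OE-Vector 1 and 481, 1606 and 486 CPM in OE-MLKL. In macrophages Ccl8 had 1356 CPM against 408, 1242 and 675 CPM and Ccl7 429 CPM against 122, 463 and 364 CPM. These monocyte-attracting genes had OE-MLKL 2 near OE-Vector 1, unlike Ccl24. In T cells Ccl1, a CCR8 ligand, had 189 CPM against 248, 473 and 182 CPM, and 0 genes of this list were called in any of the 3 classes.

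Genes whose levels over the 45 class sums were most like those of each member were named by Pearson's r of log2(CPM + 1) among 16768 genes. For Ccl17 these were Ppp1r14a (0.89), Cst3 (0.88), Htr7 (0.87), Tspan33 (0.86) and Plet1 (0.86). For Ccl22 they were Timd4 (0.89), Etv3 (0.88), Tspan33 (0.82), Lpar3 (0.81) and Tbc1d4 (0.80), with Tspan33 in both lists. For Ccl24 they were Saa3 (0.82), Nr1h3 (0.78), Epm2a (0.77), Sod2 (0.76) and Lpl (0.76). For Ccr7 they were Ccr6 (0.84), Tmem123 (0.76), Il4i1 (0.76), Cxcr5 (0.75) and Slamf1 (0.75), of which Il4i1 is a marker of the mature gate. Ccr4 and Ccr3 had 111 and 134 UMIs in all, so the genes most like them rest on few counts. These genes were Ermn, Actn2, Mei1, Gm42921 and Trav16n for Ccr4 and Gm20531, Gm15340, Gm8013, Gm10392 and Gm50277 for Ccr3.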

How the data were processed

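The labels and the study's methods name 10x Genomics 3' v2 chemistry. This was not checked against the count tables, which list between 2295176 (OE-Vector 1) and 2991965 (OE-MLKL 3) barcodes per library. The authors deposited unfiltered UMI counts per gene and barcode. The labels name Cell Ranger 2.1.1 and mm10, the file header names Cell Ranger 7.1.0, and whether intronic reads were counted is not given in the sources used here. Barcodes with at least 500 UMIs, more than 200 genes, under 10% mitochondrial and at most 5% haemoglobin UMIs were kept as cells, and the highest doublet scores (11363 cells) were removed. The study's stated filter would leave 92392 barcodes. Cells were gated on marker genes, with thresholds set after seeing the data, and the members and lists were chosen with earlier results of these data known. UMIs were summed per class and library and tested with edgeR 4.0.16 (quasi-likelihood, TMM scaling, filterByExpr, Benjamini-Hochberg over all genes tested, threshold 0.05, 2 residual degrees of freedom), a fit checked on simulated counts. DESeq2 1.42.0 and limma 3.58.1 (voom) were alternatives. The study's own test takes cells as replicates and was not used. Other fitted classes had at least 20 cells in every library and 10% or more of a member's UMIs. Named genes were the 6 members, list genes that passed the threshold, the 3 genes of a list with the highest mean CPM in the class described, and the 5 genes most like each member. Outside this rule, Il4, Csf2, Cx3cl1, Ccl19, Ccl21a, Ccl11 and Ccl26 were also named, as were called genes that were on no list. Library totals ran from 150591289 to 169978362 UMIs and median UMIs per cell from 1647 to 4316. Medians per dendritic cell were 7476 (OE-Vector 1), 5370, 4845 and 8374.5 UMIs (the OE-MLKL libraries in order), and per macrophage 8236, 4071, 4695.5 and 6779. Intervals are exact, at 95%, and limits for a count of 0 use 3 counts. Both cover counting error only. The study gives 3 mice for each group, and the labels do not name the mouse of each sample. The p-values of the fits judge the difference between the groups against a spread taken from the OE-MLKL samples. The exact permutation p-values use no estimate of spread.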

Additional observations from a re-analysis of the deposited data

Results flagged for a closer look

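Ccl24 was lower in every OE-MLKL library than in OE-Vector 1 in dendritic cells (log2 fold change -2.22), macrophages (-3.67), cancer cells (-2.26) and neutrophils (-3.02), and higher in every OE-MLKL library in fibroblasts (1.87). Ccr7 was lower in every OE-MLKL library in dendritic cells (-1.08) and cancer cells (-1.17) and higher in every one in T cells (1.04). Of all genes tested, OE-Vector 1 lay above every OE-MLKL library for 21.2% in dendritic cells, 18.6% in macrophages, 17.3% in cancer cells and 15.8% in neutrophils, and below every one for 30.9% in fibroblasts and 25.2% in T cells. These values were picked out because all libraries moved one way in one class and the opposite way in another. The differences between classes were not tested, and all rest on the same single OE-Vector library. In fibroblasts the share of cells with a Ccl24 UMI, unlike the level, did not set OE-Vector 1 below every OE-MLKL library. Below the level of free RNA were the cancer cell values of both genes, the neutrophil values of Ccl24, and the fibroblast value of Ccl24 in OE-Vector 1 (16.9 CPM against 33.3 CPM). The dendritic cell value of Ccl24 in OE-MLKL 3 was also below the free RNA of that library, 5.76 CPM. The libraries held 3762, 348, 406 and 217 Ccl24 UMIs in all, and dendritic cells had only a small part of them. Their Ccl24 change therefore rests on few UMIs, above all in the OE-MLKL libraries.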

How the results depend on the processing

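No paired analysis was possible because only 1 OE-Vector library was analysed here. Over the 6 classes the number of genes called depended on the setting. In dendritic cells 6 genes became 2 with library size alone or a mean of at least 20 UMIs, 0 with limma-voom, 60 with no filter on low counts, 3 with high doublet scores kept, 1 with 1 more gate marker and 44 with check markers in place of gate markers. In macrophages 3 became 1 with library size alone, no filter, 1 more gate marker or check markers, 58 with DESeq2, and 0 with limma-voom or the mean of 20. In T cells 3 became 16 with DESeq2, 1 with limma-voom, 134 with no filter and 0 with check markers. In cancer cells 1 became 80 with DESeq2 and 0 with library size alone, limma-voom or 1 more gate marker. In fibroblasts 2 became 5 with RLE size factors, 22 with DESeq2, 164 with no filter, 4 without shared barcodes, 1 with limma-voom, doublets kept or check markers, and 0 with the mean of 20 or 1 more gate marker. In neutrophils 0 became 75 with DESeq2 and 16 with no filter. Leaving out 1 OE-MLKL library gave 1 to 247 calls in dendritic cells, 0 to 740 in macrophages, 25 to 408 in T cells, 2 to 658 in cancer cells, 1 to 110 in fibroblasts and 0 to 1691 in neutrophils, and without OE-MLKL 3 each class but fibroblasts had its highest count. The cause was not tested.

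The Ccl17 change in dendritic cells passed the threshold with no filter (2.19) and without OE-MLKL 3, and ran from 1.82 to 2.77 when 1 library was left out. Ccl22 in dendritic cells turned to 0.14 with 1 more gate marker, and ran from -1.58 to 0.0029, the upper value without OE-MLKL 1. Leaving out 1 library moved Ccr7 from -1.42 to -0.67 in dendritic cells and from 0.97 to 1.15 in T cells, Ccl24 in macrophages from -4.60 to -3.27, and Ccr3 in neutrophils from -2.00 to -1.55, and each of these passed the threshold without OE-MLKL 3. Ccl24 in macrophages passed it without OE-MLKL 2 as well. Ccl24 in fibroblasts turned to -1.11 with doublets kept, and Ccl17 in neutrophils to -0.28 with limma-voom and -0.095 with 1 more gate marker. The calls of Retnla and Il13 were lost with limma-voom (adjusted p of 0.381 and 0.137), that of Retnla with 1 more gate marker (0.432) and that of Il13 with check markers (0.0654). The mean share of Ccl17 UMIs in dendritic cells, 68.6%, fell to 57.0% with doublets kept, 49.9% with 1 more gate marker and 42.1% with check markers, that of Ccl22, 73.7%, to 64.1 and 47.1% under the last pair, and that of Ccr3 in neutrophils, 44.7%, to 28.0% in cells with at least 1000 UMIs and 500 genes. The macrophage share, 1.37 points higher in OE-MLKL, was -0.48 without OE-MLKL 3 (to 3.32 without another). Calls also appeared for Ccl24 in dendritic cells with doublets kept (-5.56, adjusted p = 0.0100), for Ccl17 in macrophages (2.54) and Ccl24 in neutrophils (-3.22) without OE-MLKL 3, and for Ccl17 in T cells with no filter (4.50) and without OE-MLKL 1 (5.07). The other values, 230 of 297 of the main results and 143 of 154 of single genes, were counted as unchanged. Changes of a gene then kept their direction and their side of the threshold, and differences in class share kept their direction. Numbers of called genes stayed within a set factor, and shares of UMIs moved by less than their SD over libraries. Moves within that SD included the share of Ccl24 UMIs in macrophages, from 60.2% to 41.7% at its lowest. That of Ccr7 in dendritic cells went from 45.3% to 28.5%.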
